A study of Saccharomyces cerevisiae with 30 samples.

Results

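Messages held on cellular membranes were compared with soluble messages in budding yeast, Saccharomyces cerevisiae, using 1 library of polyadenylated RNA from each fraction of a lysate incubated with cycloheximide. An open reading frame (ORF) was included when it had 50 or more counts over the 2 libraries, which 5516 of the 5904 ORFs in the deposited table did. Of the remainder, 388 were under that minimum and are not described. The ORFs were then followed by the class that the authors gave them and by where in the protein the first targeting signal lies.

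Proteins bound for the secretory pathway carry a hydrophobic signal, either a cleaved signal sequence or a transmembrane segment. As the signal leaves the ribosome, the signal recognition particle (SRP) or other factors bring the translating ribosome to the Sec61 channel of the endoplasmic reticulum (ER), and the message is then held there through its ribosomes. A signal close to the end of the protein emerges only when translation is almost over, and tail-anchored proteins, whose single segment lies at the very end, are inserted after release by the GET pathway. Messages for some mitochondrial proteins are likewise found at the mitochondrial surface.

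The strain was BY4741 carrying srp72::SRP72-TAP-HIS3MX, so that both fractions come from cells with a tagged SRP subunit, grown in the rich medium YPD to mid-log phase, harvested by fast filtration and broken open frozen. Centrifugation separated soluble from membrane material, so that ER, mitochondria, vacuoles, plasma membrane and any denser particles share 1 fraction. Cycloheximide is an inhibitor of translation elongation that keeps ribosomes on their messages. The same ORFs are given side by side in 5 other comparisons of membrane with soluble material: messages of W303 and of prt1-1 (strain CY2522, with a temperature-sensitive translation initiation factor subunit), both at 25 °C, messages of the BY4741 lysate treated with puromycin, which releases nascent chains, ribosome footprints of BY4741 polysomes without drug, and footprints of BY4741 cultures given cycloheximide at 100 µg/mL. W303 and prt1-1 differ from BY4741 in strain and in stated growth temperature together, and these cannot be told apart.

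The soluble library held 26999841 counts and the membrane library 24686433. Neither has a replicate, so the spread between samples is unknown and no test was made. Each ratio below is log2 of the membrane level over the soluble level, in CPM, counts per 1000000 counts of the library, scaled by the trimmed mean of M values (TMM), and each interval is an exact 95% interval that covers counting error only. The scale is relative. Library totals in place of TMM moved every log2 ratio by -0.38, and setting the cytonuclear median to 0 moved every one by 0.16. The scale of the authors' deposited table lies 0.14 above that used here. Differences between groups do not depend on this choice, but a ratio near 0 has no fixed sign.

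Genes of the secretory pathway took a larger share of the membrane library than of the soluble one, although cytonuclear messages were the most numerous in both. The 3 signal-bearing classes took 8.84% of the soluble counts and 30.4% of the membrane counts, whereas the cytonuclear class, proteins of the cytosol and nucleus, went from 76.1% to 50.3%. Over all ORFs 1033 were more than 2-fold higher on membranes, a background of 18.7%, and 184 were more than 2-fold lower, a background of 3.34%. Among the 72 ORFs with both a signal sequence and a transmembrane segment 69 were over 2-fold higher, and the median log2 ratio was 2.63. Of 536 ORFs with transmembrane segments alone 389 were over 2-fold higher, with a median of 2.05. Of 195 with a signal sequence alone 125 were, with a median of 2.09. All 3 classes lay 2.21 to 2.79 above the cytonuclear median on the log2 scale, a difference that the scaling cannot change.

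The remaining classes overlapped the cytonuclear ORFs. In the authors' class named exception, which the table does not define, 219 of 621 ORFs were over 2-fold higher and the median was 0.37, with an upper quartile of 1.88. Mitochondrial ORFs were over 2-fold higher in 142 of 552 cases around a median of 0.28, which is negative with library totals (-0.10). Tail-anchored ORFs were over 2-fold higher in 3 of 59 cases around a median of -0.08, which is positive with the cytonuclear median set to 0 (0.08). Cytonuclear ORFs were over 2-fold higher in 86 of 3481 cases, a share of 2.47%, and over 2-fold lower in 139.

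**Figure D1:**
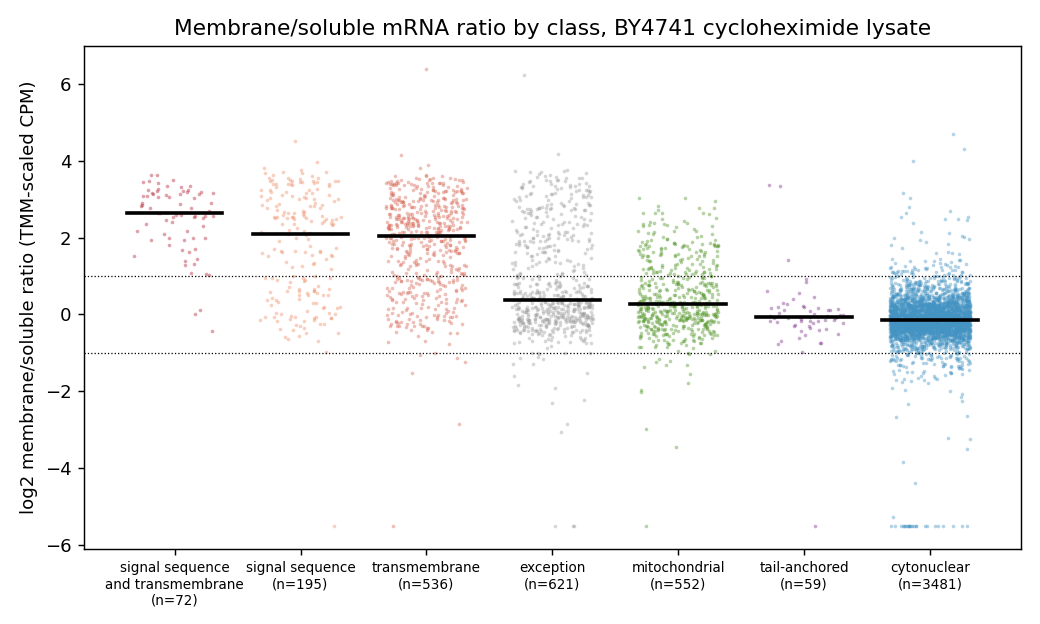
Each point is 1 ORF, the vertical axis its log2 membrane/soluble ratio of TMM-scaled CPM, black bars the class medians and dotted lines 2-fold either way. The 31 ORFs below -5.5, of which 25 had no membrane count, are drawn at the lower edge; the 3 signal-bearing classes have medians of 2.05 to 2.63, while the tail-anchored and cytonuclear medians lie at -0.08 and -0.16.

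The 5 highest ratios among ORFs with at least 500 counts belonged to secretory and membrane proteins. APE3, a vacuolar aminopeptidase (chromosome II, 774700 to 776313 in RefSeq R64), stood at 432 CPM in the soluble and 6789.5 CPM in the membrane library, a log2 ratio of 3.97. CPS1, a vacuolar carboxypeptidase (chromosome X, 97737 to 99467), went from 76.3 to 1139 CPM, a ratio of 3.90. ERG4, the last enzyme of ergosterol synthesis (chromosome VII, 472855 to 474276), had a ratio of 3.80. The other two were TCB3, a tricalbin that ties the ER to the plasma membrane, and KTR1, a Golgi mannosyltransferase, both at 3.77. For these 5 the membrane level was 13.6 to 15.7 times the soluble level.

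The machinery that receives and modifies nascent chains held both high and near-equal members, and the shortest subunits were among the latter. SEC61, the channel itself, had 242 CPM in the soluble and 2607 CPM in the membrane library, a log2 ratio of 3.43 (3.40 to 3.47). Its homolog SSH1 had 3.61 and SEC63, which recruits the lumenal chaperone Kar2, had 3.40. The oligosaccharyltransferase subunits OST1 and WBP1 had 3.63 and 3.62, and the catalytic subunit STT3 had 3.57. In contrast the small channel subunit SSS1 was at 154 CPM and 145 CPM, a ratio of -0.08 (-0.15 to -0.02). The signal peptidase subunit SPC1 stood at 0.50 and the oligosaccharyltransferase subunit OST2 at 0.24. OST4, with 36 codons the shortest subunit, stood at -0.98 (-1.13 to -0.83). Over the list of subunits of the channel, the signal peptidase and the oligosaccharyltransferase 12 of 22 were over 2-fold higher. On the TMM scale none was over 2-fold lower. The 10 within 2-fold were 36 to 274 codons long and the 12 higher ones 167 to 718. Length is not the only trait that sets the 10 apart. OST4, SSS1, SBH1 and SBH2 are in the authors' tail-anchored class and SEC72 is in the cytonuclear class. OST2, OST5, SPC1, SPC2 and SEC62 are in the transmembrane class.

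Messages for SRP itself were near equality between the fractions. SRP72 stood at 91.7 CPM in the soluble and 92.2 CPM in the membrane library, a ratio of 0.01 (-0.08 to 0.09), and SRP54, the signal-binding subunit, had -0.02. The alpha subunit of the SRP receptor, peripheral to the ER membrane, had -0.01. The beta subunit, which spans the membrane, was the single member of the 8 over 2-fold higher, at 22.9 and 186 CPM and a ratio of 3.02 (2.90 to 3.14).

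Messages for residents of the ER lumen were almost uniformly higher in the membrane library. Of 18 chaperones and folding enzymes 17 were over 2-fold higher, with a median log2 ratio of 3.21. KAR2, the ER Hsp70, which the authors' table classes as transmembrane although its protein is lumenal, had 362 CPM in the soluble and 4250.2 CPM in the membrane library, a ratio of 3.55 (3.53 to 3.58). PDI1, protein disulfide isomerase, had 3.46. The exception was FPR2, a small peptidyl-prolyl isomerase with 130 codons between signal and stop, at 49.6 and 75.3 CPM and a ratio of 0.60 (0.50 to 0.70).

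Enzymes of lipids and glycans embedded in ER and Golgi membranes stood as high. All 31 glycosyltransferases were over 2-fold higher, from ALG2 at 1.51 to KTR1 at 3.77, with a median of 3.20. MNN9, of a Golgi mannan polymerase, stood near the middle at 3.20, and PMT4, a protein O-mannosyltransferase, had 3.72. Of 30 lipid enzymes 26 were over 2-fold higher, with a median of 2.995, including ERG11, lanosterol demethylase, at 3.56, HMG1, HMG-CoA reductase, at 3.25, and OLE1, the fatty acid desaturase, at 3.19. The other four were all of sterol synthesis. ERG1, squalene epoxidase, stood at 414 and 310.2 CPM, a ratio of -0.42 (-0.46 to -0.37), ERG9 at -0.29, ERG26 at -0.27 and ERG27 at 0.01. None of them is in a signal-bearing class. ERG1 and ERG27 are in the exception class, ERG9 is in the tail-anchored class and ERG26 in the cytonuclear class. Some of the higher enzymes, such as ERG25 at 3.46, are in the exception class as well.

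Cargo carriers, pumps and vacuolar proteins followed. All 14 p24 proteins and cargo receptors were over 2-fold higher, between 1.74 for ERV14, which exports transmembrane cargo, and 3.39 for the lectin EMP46. Of 30 plasma membrane transporters 28 were, with a median of 2.41. PMA1, the proton pump of the plasma membrane, had 2713 CPM in the soluble and 24894 CPM in the membrane library, a ratio of 3.20 (3.19 to 3.21). The hexose transporter HXT2 was highest of that list at 3.43 and the ammonium transporter MEP2 lowest at 0.33 (0.14 to 0.52), on 475 soluble and 419 membrane counts. HXT6, at 0.87, is nearly identical to HXT7, at 3.10, and how reads they share were counted is not known from the sources used here. Among 7 subunits of the vacuolar ATPase membrane sector 5 were over 2-fold higher, led by VPH1 at 2.22, with the proteolipid VMA3 at 1.35 and the 73-codon VMA9 at 0.37. VMA6, the subunit that sits on the sector without a membrane span, was lowest at -0.25.

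Among 12 vacuolar hydrolases the 8 over 2-fold higher included APE3, CPS1, PRC1 (carboxypeptidase Y) at 3.55 and PEP4 (proteinase A) at 2.83. The 4 within 2-fold were AMS1 at -0.88, APE1 at -0.02, PRB1 at 0.16 and LAP3 at 0.33. PRB1, proteinase B, enters the ER through a signal sequence. AMS1 and APE1 are known to reach the vacuole directly from the cytosol, by a selective autophagy route that bypasses the ER. The ratio of AMS1 varied between comparisons, with 0.89 in W303, -1.14 in prt1-1 and 1.67 in undrugged polysome footprints.

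Cell wall proteins fell into high and low members rather than around one value. Of 26 GPI-anchored and wall proteins 16 were over 2-fold higher. GAS1, a glucan-remodelling enzyme, had 752 and 9825 CPM, a ratio of 3.71 (3.69 to 3.73), and ECM33 had 3.41. The other ten lay between -0.40 and 0.52. CCW12, one of the most abundant messages here with 11243 CPM in the soluble and 10096 CPM in the membrane library, had -0.16 (-0.16 to -0.15), and CWP2 had -0.10. HSP150, a secreted protein with internal repeats and 406 codons between signal and stop, was lowest at -0.40. Over all 54 ORFs that the authors mark as GPI-anchored, 30 were over 2-fold higher and the median was 1.70. Short length was shared by some of the low members (88 codons from signal to stop in CWP2 and 130 in CCW12) but not by HSP150. SUC2, invertase, which yeast makes in a secreted and an intracellular form, stood at 98.8 and 92.8 CPM, a ratio of -0.09, with 529 codons from signal to stop.

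The distance from the first signal to the stop codon separated signal-bearing ORFs more than any other position given. Of 48 ORFs with at least 50 and under 100 codons of that distance 3 were over 2-fold higher, and their median ratio was 0.07, which is -0.31 with library totals. With 100 to under 200 codons 61 of 127 were, and the median was 0.86. With 200 to under 400 codons 181 of 228 were, and the median was 2.38. With 400 or more codons 336 of 398 were, and the median was 2.46. Across the 803 ORFs Spearman's rho between distance and ratio was 0.39. The total count of an ORF had a rho of 0.54 with the ratio over the same ORFs, and since the membrane counts enter both measures this value is in part arithmetic. With a minimum of 1000 counts, chosen after seeing the data, the 4 medians were -0.04, 1.19, 2.51 and 2.57.

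Single genes in these bins spanned the range, and highest and lowest here mean among ORFs with at least 200 counts. From 50 to under 100 codons YLR342W-A, an ORF of 57 codons whose systematic name places it beside FKS1, was highest at 3.43, and INA17, an assembly factor of the mitochondrial ATP synthase, lowest at -1.07. With 100 to under 200 codons YET3, a homolog of the mammalian BAP31 proteins, stood at 3.16 and SEC66 at 2.24, while YDL211C stood at -1.52 on 367 soluble and 90 membrane counts. At 400 or more codons the lowest was PXA1, a peroxisomal fatty acid transporter, at -0.72. Only 2 ORFs had under 50 codons, and both were over 2-fold higher. MIN3, of 28 codons, stood at 1.53 (1.22 to 1.86), and YMR315W-A, on 3 soluble and 48 membrane counts, at 4.51 (2.88 to 6.84).

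**Figure D2:**
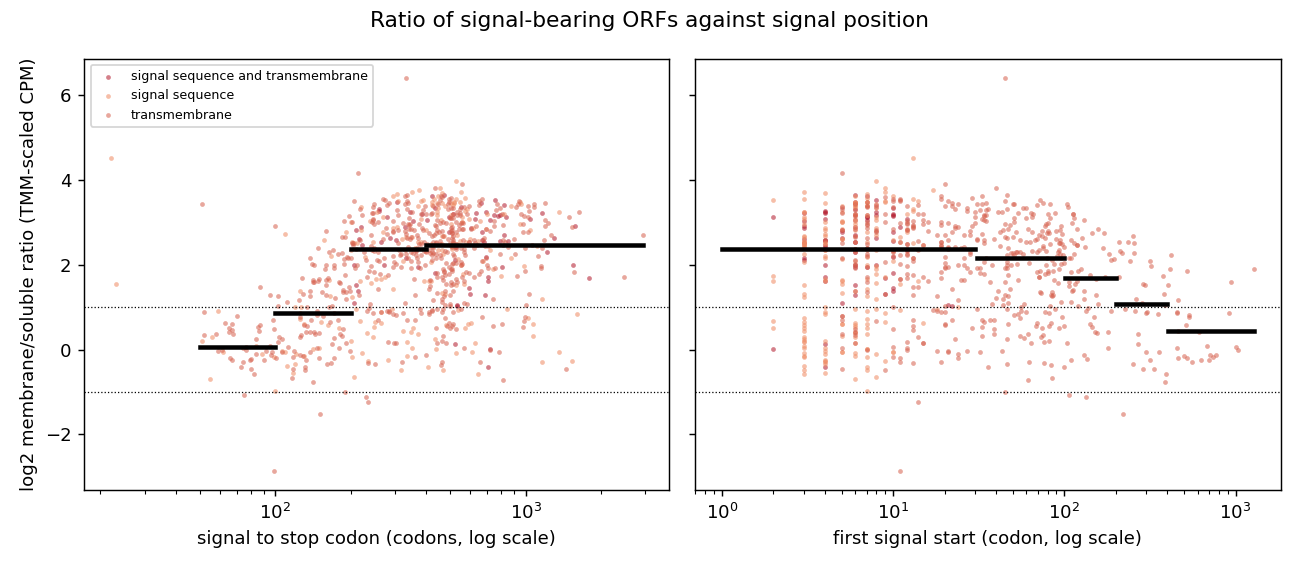
Log2 membrane/soluble ratio of signal-bearing ORFs against the distance from first signal to stop codon (left) and the codon at which the first signal starts (right), both on log axes, with black bars at bin medians, dotted lines at 2-fold and ORFs without a membrane count left off. The medians on the left run from 0.07 at 50 to under 100 codons to 2.46 at 400 or more, and those on the right from 2.36 down to 0.43.

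A late first signal went with a lower ratio. The median was 2.36 for the 478 ORFs whose signal starts within 30 codons, 2.15 for 205 at later codons up to 100, 1.68 for 58 beyond 100 and up to 200, 1.07 for 34 beyond 200 and up to 400, and 0.43 for 28 beyond codon 400. A late signal also leaves less protein behind it. Where 200 or more codons followed the signal, the medians in the same order were 2.54, 2.42, 2.00, 1.62 and 0.88, on 386, 159, 46, 24 and 11 ORFs. Beyond codon 400, 5 of the 11 ORFs with 200 or more codons left and 2 of the 17 with fewer were over 2-fold higher.

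Those late-signal proteins can be named, a choice made after their values were seen. VPH1, whose first segment starts at codon 418 and leaves 422 codons, had 505 and 2345 CPM, a ratio of 2.22. PDR5, a drug efflux pump with its first annotated segment at codon 520, had 1.84, and PHO90, a phosphate transporter, had 1.90. The vacuolar polyphosphate polymerase subunits, whose segments lie near the end, had -0.24 in VTC2, -0.13 in VTC3 and -0.24 in VTC4. MGA2 and SPT23, ER-anchored transcription factors with segments past codon 1000 and 76 codons left, had -0.00 and 0.06. YSP2, a sterol transfer protein, had a first segment at codon 1280 with 158 codons left and a ratio of 1.90, 1 of the 2 high ORFs with under 200 codons remaining.

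Signal sequences and segments that the authors annotate as SRP dependent or independent overlapped in their ratios. Among signal-bearing ORFs with 200 or more codons after the signal, 197 of 216 annotated SRP dependent were over 2-fold higher, with a median of 2.69. Of 211 annotated SRP independent 174 were, with a median of 2.54. The gap between these medians was smaller than the spread within either set, whose quartiles were 2.11 to 3.14 and 1.62 to 3.18.

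Tail-anchored proteins had ratios close to those of cytonuclear ORFs. In a list of 30 known tail-anchored proteins none passed 2-fold either way on the TMM scale, and the median was -0.13 (0.02 above the cytonuclear median). SCS2, an ER contact site protein, stood at -0.20, SNC1, a secretory vesicle SNARE, at -0.13, and SSO2, its plasma membrane partner, at -0.69 (-0.77 to -0.62). UFE1, an ER SNARE that the authors class as exception, was highest at 0.37. The highest ORFs of the authors' tail-anchored class were PMP1 and PMP2, regulators of the proton pump Pma1. PMP1 had 105 CPM in the soluble and 1076 CPM in the membrane library, a ratio of 3.36 (3.31 to 3.41), and PMP2 had 96.2 and 972 CPM, a ratio of 3.34. Their segments start at codons 6 and 8 of 40 and 43, with 34 and 35 codons left after the start of the segment. In W303 they stood at 2.60 and 3.06 and in prt1-1 at 1.99 and 2.28. They are close paralogs, and reads common to both could have been counted for either.

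Nuclear-encoded mitochondrial messages covered a wide range. Of 533, 125 were over 2-fold higher and 16 over 2-fold lower, and the median was 0.24, which is -0.15 with library totals. Longer ORFs were higher, with 4.0% over 2-fold under 100 codons, 5.05% at 100 to under 200, 13.4% at 200 to under 400 and 44.2% at 400 or more. The medians of these 4 bins were -0.17, -0.10, 0.23 and 0.80, and rho with length over the whole class was 0.41. In the cytonuclear class rho with length was 0.10, and 39 of 1813 ORFs of 400 or more codons were over 2-fold higher.

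TOM70, the import receptor for carriers, had 106 CPM in the soluble and 718 CPM in the membrane library, a ratio of 2.77 (2.71 to 2.82). It led the 8 of 22 outer membrane and import genes that were over 2-fold higher, among which were TIM50 at 2.63 and TIM44 at 2.39. TOM20, another receptor, stood at 0.28 and OM14, an outer membrane protein, was lowest at -0.38. NDE1, an NADH dehydrogenase facing the intermembrane space, had 141 and 755 CPM, a ratio of 2.43, and was the single one of 24 respiratory chain genes over 2-fold higher. LEU4, isopropylmalate synthase, had 304 and 1598 CPM, a ratio of 2.39, and with LEU9, SHM1 and GCV1 made up the 4 of 25 matrix enzymes over 2-fold.

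The energy-producing complexes and the mitochondrial ribosome were mostly within 2-fold. None of 14 ATP synthase genes was over 2-fold either way on the TMM scale. ATP4 was highest at 0.66, ATP2, the catalytic beta subunit, stood at 0.15, ATP3 at -0.32 and ATP20 lowest at -0.74. Of 63 mitochondrial ribosomal proteins 5 were over 2-fold higher, led by MRPL3 at 1.79, and 2 lower, with MRPL38 at -1.96. Of 20 carriers 5 were over 2-fold higher, of which PET9, the main ADP/ATP carrier, stood highest with 546 and 1902 CPM and a ratio of 1.80 (1.78 to 1.83).

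Messages of the mitochondrial genome itself made up 0.0342% of the soluble and 0.153% of the membrane counts. Yeast mitochondrial messages lack the long poly(A) tails by which the libraries were selected, so this share is not their share of cellular RNA. Of 19 such ORFs 17 were over 2-fold higher, with a median of 2.27. COX1, a cytochrome oxidase subunit, had 21.4 and 176 CPM, a ratio of 3.04 (2.92 to 3.16), and OLI1, an ATP synthase subunit, had 2.71. AI5_BETA, an intron-encoded ORF inside COX1, also had 3.04, and reads of the pair may not be separable. In W303 the median of the 19 was 1.28 and in prt1-1 1.55.

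Messages carried to the bud by the She2 and She3 proteins, a transport route that runs along actin, were mostly higher in the membrane library. Of 17 listed 13 were over 2-fold higher, and the median of the list was 2.74. Most of the 13 are in signal-bearing classes, of which 72.6% of all ORFs were over 2-fold higher. These are CPS1, TCB1, TCB2, ERG2, EGT2, WSC2, TPO1, SRL1 and MID2. TCB3, IST2, EAR1 and ASH1 are in the exception class. IST2, an ER and plasma membrane tether, had 98.4 and 1113 CPM, a ratio of 3.50. ASH1, a transcription repressor of the daughter nucleus, has no secretory signal and had 41.7 and 163 CPM, a ratio of 1.97 (1.88 to 2.06). The ratio of ASH1 was 0.91 in W303 and 0.48 in prt1-1. The 4 of the list within 2-fold were CLB2 at -0.12, BRO1 at 0.06, DNM1 at -0.14 and MMR1 at 0.64. None of these 4 is in a signal-bearing class.

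Housekeeping messages lay within 2-fold of equality on the TMM scale of this comparison. None of 21 single-copy ribosomal protein genes, 18 glycolytic genes, 24 cytosolic chaperones, 25 nucleolar assembly factors and 31 proteasome genes passed 2-fold either way. Their medians lay -0.12, -0.30, -0.20, 0.02 and -0.11 from the cytonuclear median in that order. Library totals move every ratio by -0.38, and some members then fall past 2-fold lower. These are ENO1 (-0.79), TDH1 (-0.64), HAS1 (-0.65), PUP1 (-0.85), RPN10 (-0.71) and RPT5 (-0.64), with their TMM ratios in brackets. In W303 the ribosomal protein and glycolytic medians were -1.22 and -1.06, and in prt1-1 -1.22 and -1.22, each strain scaled on its own. PGK1, phosphoglycerate kinase, had 8438 CPM in the soluble and 5982 CPM in the membrane library, a log2 ratio of -0.50 (-0.51 to -0.49). RPL3, a ribosomal protein, had 5579 and 4623 CPM, a ratio of -0.27, and ACT1, actin, had -0.38. In CPM these messages remained abundant in the membrane library. HAC1, the transcription factor of the unfolded protein response, whose message is spliced at the ER membrane when that response is on, had 978 and 650.0 CPM, a ratio of -0.59 (-0.62 to -0.56).

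A small set of cytonuclear ORFs was over 2-fold higher on membranes in all 3 strains. Of 59 over 2-fold higher here and with enough counts in all 3 strains, 26 were over 2-fold higher in W303 and prt1-1 as well. Over all classes 773 of 942 higher ORFs did so, or 82.1%, and the ORFs higher in all 3 strains were 14.6% of the 5292 measured. LIH1 was highest in the class among ORFs with at least 200 counts, with 12.0 and 84.1 CPM and a ratio of 2.80 (2.64 to 2.97), and had 2.90 in W303 and 3.20 in prt1-1. YHR033W followed with 2.53, 2.25 and 1.99. The remaining names were chosen after their values were seen. UBX2, known as an ER membrane protein of protein degradation despite its class, had 2.13 with 3.05 in W303. ABP140, an actin-binding protein whose message is known to move to the far end of the mother cell, had 2.04 with 3.33 in W303. SEG1, an eisosome component, had 1.80, MTF1, the mitochondrial transcription factor, 1.73, and TCM62, a mitochondrial chaperonin, 1.44. FAB1, the vacuolar phosphatidylinositol phosphate kinase, had 1.45, RSP5, a ubiquitin ligase, 1.43, and PLN1, a lipid droplet protein, 1.16. YDR034C-D, YCL019W and YJR029W are long retrotransposon ORFs present in near-identical copies, and their values are uncertain.

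In undrugged polysome footprints the 26 were not uniform. UBX2 had a log2 ratio of 4.76, FAB1 4.33 and MTF1 3.49, chosen after their values were seen. Others were not higher there, with RPR2 at -0.05 and IGO1 at -0.45. LIH1 and YHR033W had 9 and 32 footprint counts, under the minimum of 50, and are not compared there.

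ORFs over 2-fold lower on membranes rested on few counts. Of the 184, 131 had under 1000 counts, against 180 of the 1033 higher ones, where 941 of all 5516 ORFs had under 1000. The 5 lowest with at least 500 counts were KRE28, a kinetochore protein, at -2.06 (-2.37 to -1.77), MRPL38 at -1.96, PCD1, a peroxisomal pyrophosphatase, at -1.92, SSF2, a ribosome assembly factor with a close paralog, at -1.84, and VFA1, which binds the Vps4 ATPase, at -1.78. KRE28 had 667 soluble and 112 membrane counts. In 25 ORFs no membrane count was seen, on 51 to 288 soluble counts. MSL1, a spliceosomal U2 protein, had 288 soluble counts, so that at a floor of 3 counts in the membrane library it was 67.4-fold lower. The upper end of its counting interval was a log2 ratio of -5.77. FAR7 had 323 and 3 counts, a log2 ratio of -6.24 (-8.53 to -4.68). In W303, by contrast, MSL1 stood at -0.28 and FAR7 at -0.40.

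Ratios over 2-fold higher recurred between strains while ratios over 2-fold lower mostly did not. Of 942 ORFs higher here and measured in all 3 strains, 864 were higher in W303, 91.7% of this set and 75% of the 1152 higher in W303. In prt1-1 796 were, 84.5%. The background of higher ORFs was 21.9% in W303 and 21.6% in prt1-1. Of 151 lower here, 15 were lower in W303 (9.93%, beside a W303 background of 8.06%) and 29 in prt1-1 (19.2%, beside 13.4%). The 8 lower in all 3 strains (0.151% of ORFs) were YNL162W-A, SWM1, TYW3, YML131W, NAT3, INA17, YGL159W and SMD1, at -1.04 to -1.51 in BY4741. Ratios in BY4741 and W303 differed by a median of 1.85 on the log2 scale for ORFs with under 200 counts here. That value rests on the 52 of 198 such ORFs that also had 50 or more counts in W303. The median difference was 0.64 from 200 to under 1000, 0.41 from 1000 to under 5000 and 0.47 from 5000 up. The median half-width of the counting interval in these ranges was 0.57, 0.24, 0.12 and 0.06. That interval covers the BY4741 counts alone, and the counting error of the W303 libraries comes on top of it.

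The signal-bearing ORFs as a whole stood above the cytonuclear class in each strain, while single genes differed. Spearman's rho between BY4741 and W303 was 0.64 over 5312 ORFs, 0.83 over 754 signal-bearing and 0.35 over 3389 cytonuclear ORFs. The signal-bearing median was 2.15 here, 2.49 in W303 and 1.96 in prt1-1. PET9 had 1.80 here, 0.53 in W303 and 0.10 in prt1-1. MEP2 had 0.33 here and 3.85 in W303, and DDR2, a stress-induced protein, had -0.70 here and 1.87 in W303. OST2 had 0.24 here, 1.26 in W303 and 2.34 in prt1-1. SPC1 had 0.50 here, -0.89 and -2.96. The difference between strains was not tested for any of these.

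**Figure D3:**
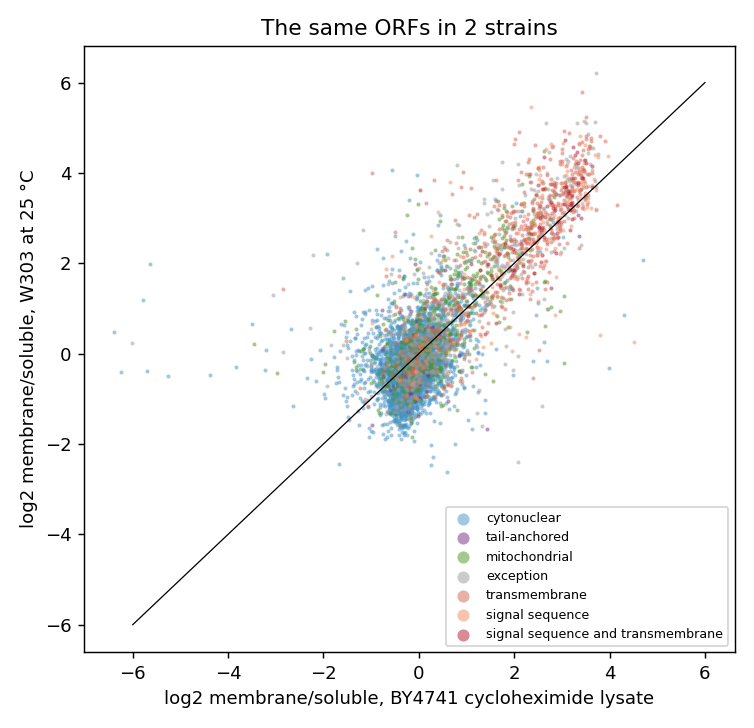
Log2 membrane/soluble ratio in the BY4741 cycloheximide lysate (horizontal) against W303 at 25 °C (vertical) for 5474 ORFs with a finite ratio in both, coloured by class, with the line of equality. Signal-bearing ORFs, with medians of 2.15 and 2.49, spread along the line. FAR7, far to the left at -6.24, lies at -0.40 in W303. No count minimum was applied to W303 here.

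Side by side with translation, the order by distance to the stop codon was the same and the span was wider. Undrugged polysome footprints had 23.4% of ORFs over 2-fold higher and 0.282% over 2-fold lower, and footprints of the cycloheximide culture 19.9% and 0.0392%. In undrugged polysome footprints, 2 libraries a side, the signal-bearing median by distance was -0.41, 1.52, 4.62 and 5.41 from the shortest of these bins to 400 or more codons, where messages had 0.07, 0.86, 2.38 and 2.46. Across 758 signal-bearing ORFs rho between messages and these footprints was 0.86. PMA1 had 3.20 in messages and 7.07 in footprints, and SEC61 3.43 and 6.19. Footprints are confined to translated messages in polysomes, whereas the RNA libraries hold every polyadenylated message of the fraction, and what part this has in the wider span was not tested. In footprints of the cycloheximide culture the signal-bearing median was 2.84.

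In the puromycin lysate the signal-bearing median was 0.61, beside 2.15 with cycloheximide, and 6.88% of ORFs were over 2-fold higher and 2.05% lower. The mRNA libraries of the lysates are 1 a side each, and the difference between them was not tested. KAR2 had 3.55 with cycloheximide and 1.88 with puromycin, SEC61 3.43 and 0.94, TOM70 2.77 and 0.32, and NDE1 2.43 and 0.20. ASH1 had 1.97 and 1.66.

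**Figure D4:**
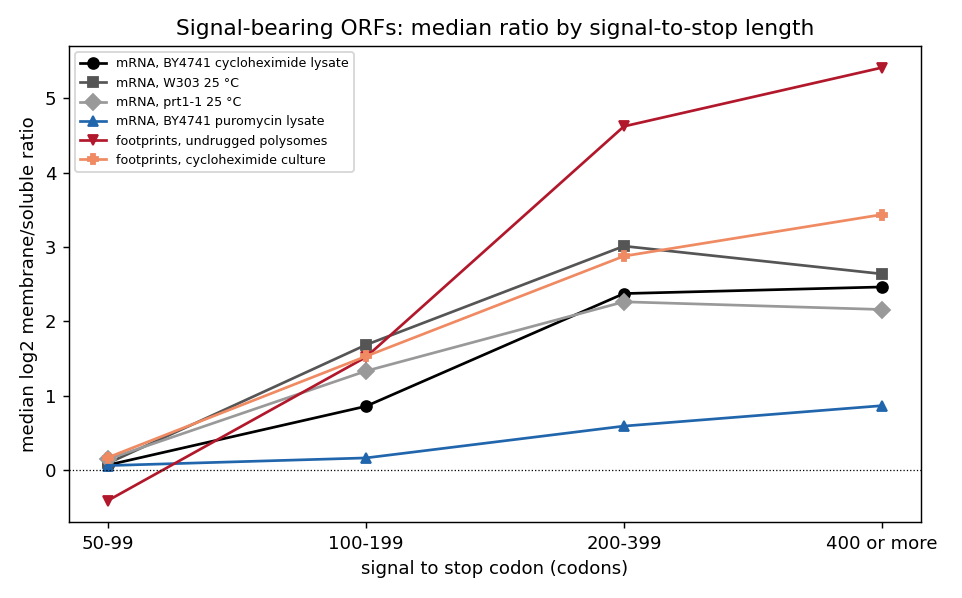
Median log2 membrane/soluble ratio of signal-bearing ORFs (vertical) in 4 bins of distance from first signal to stop codon (horizontal), 1 line per comparison, with the 2 ORFs under 50 codons left off. The BY4741 cycloheximide lysate runs from 0.07 to 2.46, undrugged polysome footprints from -0.41 to 5.41, and the puromycin lysate stays under 1.

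**Figure D5:**
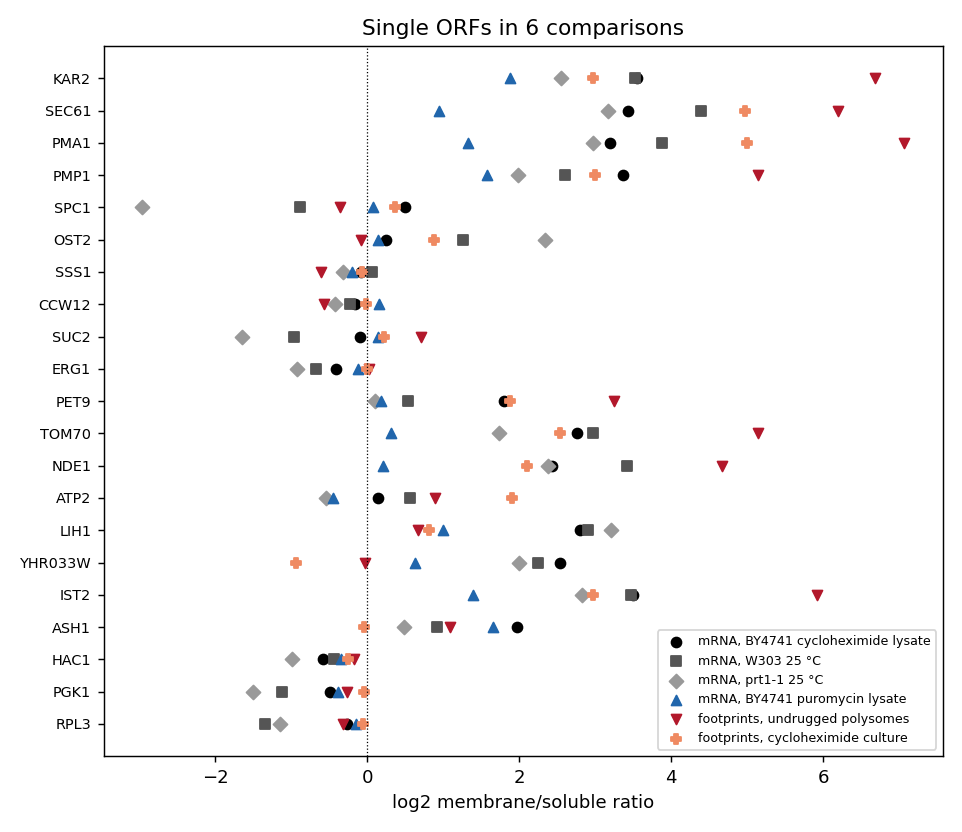
Log2 membrane/soluble ratio (horizontal) of 21 ORFs (vertical), 1 symbol per comparison, with no error bars since all but 1 comparison have 1 library a side. KAR2, SEC61 and PMA1 lie above 2.5 in messages of the 3 strains, while PGK1 and RPL3 lie between -1.50 and -0.04 over all 6.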

How the data were processed

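Poly(A) RNA of 1 soluble and 1 membrane library, broken to about 40 nt, was analysed from the deposited table of raw counts per ORF, made by the authors. Bowtie, TopHat, CASAVA, cutadapt 1.3 and sacCer3 are named per the submitters' processing notes. Strand use and the handling of reads with several matches are not given in the sources used here; close paralogs and overlapping genes are therefore uncertain. The cycloheximide lysate was matched by elimination to the BY4741 columns without a drug name, because every other BY4741 column names puromycin. Classes and codon positions are the authors', as deposited.

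Counts were scaled with TMM (edgeR 4.0.16, R 4.3.3), giving CPM. The deposited enrichment, a log2 ratio by the authors, equals the log2 ratio of counts plus 0.65 in the authors' deposited table for 5232 ORFs, where the TMM shift is 0.51. Intervals are exact (Clopper-Pearson, 95%) and cover counting error only. Called means over 2-fold, with 0 counts set to a floor of 3. The computation was tested on simulated counts with as many ORFs raised as lowered 4-fold. The data are not balanced in this way, so that test does not bear on the choice of scale. From each count table, lines without a name (3) were dropped. RefSeq R64 supplied symbols and coordinates for 5902 ORFs.

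The rule for named ORFs took the 5 highest and 5 lowest with at least 500 counts, the extremes of each class and distance bin with at least 200, a set of fixed genes, and the highest, middle and lowest of each of 23 gene lists, in which 5 of 538 entries found no match. Other list members and ORFs are named after their values were seen. The members, lists and rules were chosen with earlier results of these data known. Labels do not say that the strains' samples came from separate cultures. Alternatives were other scalings, count minimums and folds, and leaving out mitochondrially encoded ORFs.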

Additional observations from a re-analysis of the deposited data

Results flagged for a closer look

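Of the named ORFs, 4 that were over 2-fold from equality in BY4741 had the opposite sign in both other strains, with 50 or more counts in each; the differences were not tested. KRE28 had a log2 membrane/soluble ratio of -2.06 in BY4741, 0.08 in W303 and 0.49 in prt1-1. SSF2 had -1.84, 0.19 and 0.28 in the same order. RMD6 had -2.84, 0.04 and 0.01, on 316 soluble and 31 membrane counts in BY4741. AI5_BETA had 3.04, -0.20 and -0.19. The sign of the small ratios in W303 and prt1-1 depends on how those libraries are scaled.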

How the results depend on the processing

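No paired analysis was possible because the groups compared hold 1 library each. Medians relative to the cytonuclear median cannot move with the scaling, since a scaling shifts every ratio alike. They did not move beyond their 95% order-statistic interval under count minimums of 10 and 200, or without mitochondrially encoded ORFs. With a minimum of 1000 counts, chosen after seeing the data, 4 of them moved: transmembrane to 2.42, 400 or more codons to the stop to 2.72, first signal within 30 codons to 2.68 and at 31 to 100 to 2.53. The 184 lower ORFs became 479 with library totals, 280 with a minimum of 10, 53 with 1000, 51 at 4-fold and 546 at 1.5-fold. The 1033 higher ORFs became 625 at 4-fold. The 86 higher cytonuclear ORFs became 36 with library totals, 18 at 4-fold, 244 at 1.5-fold and 32 with a minimum of 1000. At 4-fold 140 exception and 36 mitochondrial ORFs were higher, and at 1.5-fold 6 tail-anchored ones. Median-of-ratios scaling, which lies 0.002 from TMM on the log2 scale, moved no count by over 1.5 times and no named ORF beyond its interval. Library totals moved 122 named ORFs beyond their counting interval and left 6 within it. Setting the cytonuclear median to 0 moved 104 and left 24 within. The largest shift by a scaling was -0.38, so no ORF past 2-fold could change sign. Depth limits ORFs with under 200 counts, whose counting interval has a median half-width of 0.57.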
